A study of Rattus norvegicus with 8 samples.

Results

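The genes described here build, fold, crosslink or cut the extracellular matrix of the arterial wall. They were taken from a list of 49 collagen, elastic fibre, basement membrane, matrix glycoprotein and matrix enzyme genes, chosen with earlier results of these data known. A gene was included when a locus of the RNA table carried RefSeq accessions that map to its symbol and to no other, and the locus with the highest mean level stood for the gene. That rule found 34 of the 49 genes, among 14771 symbols with a locus in the whole table. Of the 34, 31 had at least 1 FPKM (fragments mapped to a gene, scaled to its transcript length and to the library size) in at least 1 condition and are called expressed, Fbn2 and Mmp9 were below that minimum, and Eln had no usable estimate in control. The listed genes Loxl3 and Mmp3 lay at loci that carry several symbols and were left out, the first with Mob1a and the second with Mmp10 and Mmp13. The other 13, Col4a2, Col5a2, Col6a1, Col6a3, Col11a1, Col12a1, Col15a1, Fbln2, Lox, Tnc, Lamb1, Lama4 and Nid1, were not analysed here.

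The cells were cultured primary smooth muscle cells of the thoracic aorta of Sprague-Dawley rats, and the number of animals is not given. Untreated cells were compared with cells given 0.1 uM angiotensin II (AngII), a vasoconstrictor peptide hormone, for 3 h. RNA, the promoter mark H3K4me3 and H3K36me3, which follows transcription through gene bodies, were each measured in 1 library per condition. Differences therefore have no replicate check, and none was tested. Serum withdrawal overnight is recorded for the AngII cells and not for the controls, so AngII and serum withdrawal cannot be told apart.

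Smooth muscle cells make most of the matrix of the arterial media. Fibrillar collagens assemble from chains that are hydroxylated and folded in the endoplasmic reticulum with the help of the Plod enzymes and the chaperone Serpinh1, and are crosslinked outside the cell by lysyl oxidases. Elastin is laid on a scaffold of fibrillin microfibrils with the help of fibulins, and a basement membrane of laminins and network-forming collagens surrounds each cell. Glycoproteins such as fibronectin and osteopontin link this matrix to integrin receptors, and metalloproteinases cut it.

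The cells carried smooth muscle markers and little of the endothelial or leukocyte markers. Of 7 smooth muscle markers with a locus 6 were expressed, with Tagln at 5103 FPKM in the control and 5244 FPKM in the AngII library. Myh11 stood far lower at 96.5 and 84.7 FPKM, Smtn at 6.62 and 11.8 FPKM, and Myocd at 8.81 and 18.3 FPKM. Des was below the minimum at 0.734 and 0.557 FPKM. Acta2 was not analysed here. None of 4 endothelial and none of 5 leukocyte markers was expressed, with highest levels of 0.367 and 0.452 FPKM. Of the other marker lists, 0 of 2 adipocyte markers were expressed, and of 3 chondrocyte markers Acan stood at 20.5 FPKM in the control and 131 FPKM in the AngII library, with Col2a1 at 0.0595 and 0.0246 FPKM. Adventitial fibroblast markers, described below, were expressed at 4 of 5 loci, with Lum at 140 FPKM in the control and 111 FPKM in the AngII library. The depth of the RNA libraries is unknown. Across 16654 expressed loci the median log2 ratio of AngII to control was -0.24, so levels after AngII were also read after multiplication by 1.21, which centres that median and is called centred below.

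Matrix genes were among the most abundant RNAs of these cells in both conditions. In control 21 of 31 expressed genes (67.7%) lay above 100 FPKM, against 6.79% of 8353 expressed symbols, and after AngII 21 of 31 did, against 6.87%. The median level was 212 FPKM in control and 213 FPKM after AngII, against 12.9 and 11.6 FPKM over all expressed symbols. The 12 most abundant, by the mean of both libraries, were Sparc, Spp1, Col1a2, Fn1, Postn, Col8a1, Col3a1, Plod2, Col1a1, Mgp, Mfap4 and Serpinh1. Between neighbours in the order of levels, the deposited bounds overlapped in 29 of 30 pairs in each library, so the order is not resolved gene by gene.

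None of the 31 expressed genes was 2-fold higher or 2-fold lower after AngII, and none had bounds that do not overlap. Over all expressed symbols 3.89% were at least 2-fold higher and 2.95% at least 2-fold lower, and the bounds were apart in the higher direction for 3.02% and in the lower direction for 2.18%. For 31 genes those shares come to about 1 gene in each direction, so a count of 0 is near the background. The log2 ratio, log2((AngII FPKM + 1)/(control FPKM + 1)), had a median of -0.28 over the 31 genes, from -0.80 to 0.90, beside -0.22 over all expressed symbols. It was above 0 for 10 genes (32.3%, against 30% of all expressed symbols) and below 0 for 21. Centred, 15 lay above 0 (48.4%, against 53.3%) and 16 below, and 2 genes, Spp1 and Lamc1, passed 2-fold on the higher side (against 5.88%) and 0 on the lower (against 1.19%). The bounds of these genes are wide. They lie 2 SD of the authors' model either side of the estimate, and a gene with its relative error would need a difference of 2.42-fold to 4.24-fold for its bounds to part, so a 2-fold difference was not detectable by that measure at any of them.

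**Figure D1:**
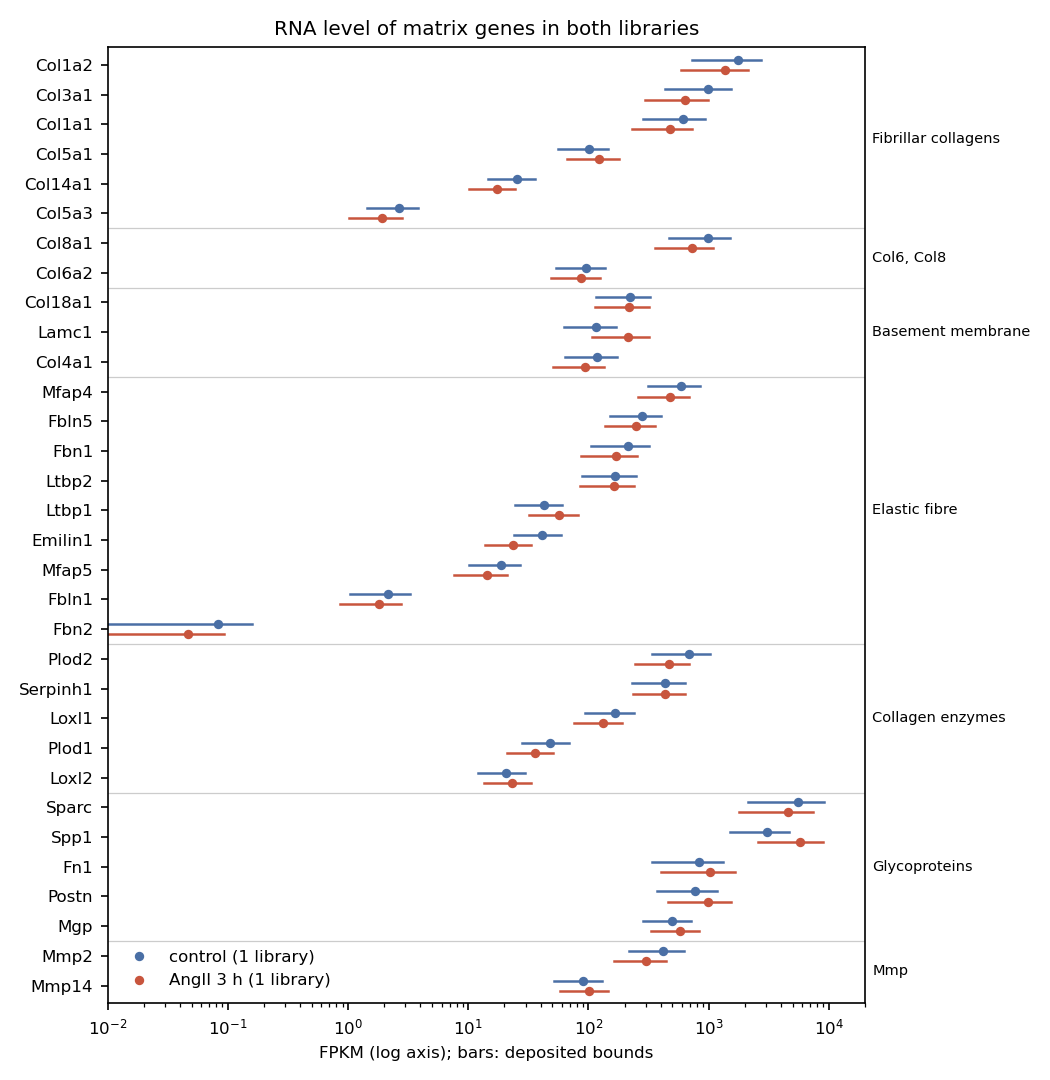
RNA level of the matrix genes with a value above 0 in both libraries, as FPKM on a log axis, grouped by role; points are the 2 libraries and bars the deposited bounds (drawn from 0.01 FPKM where the lower bound is less). The 2 points of each gene sit close together within overlapping bars, from Sparc and Spp1 at the top of the range to Fbn2 below 1 FPKM; Mmp9 and Eln, each listed at 0 in 1 library, are not drawn.

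The fibrillar collagens, which give the wall its tensile strength, mostly had ratios below 0, as did most expressed symbols. Of the 6 expressed fibrillar and fibril-associated genes 1 had a log2 ratio above 0 as deposited (16.7%, against 30% of all expressed symbols) and 1 when centred (against 53.3%). Their median was -0.35 as deposited, beside -0.22 over all expressed symbols, and -0.11 centred, beside 0.03. Together they came to 3464 FPKM in control and 2624 FPKM after AngII. Col1a2, the alpha-2 chain of type I collagen, stood at 1745 FPKM in the control library (bounds 734 to 2756) and 1363 FPKM in the AngII library (592 to 2135). Col1a1, the alpha-1 chain, stood at 608 FPKM (285 to 931) and 478 FPKM (230.4 to 726). The level of Col1a1 was thus 0.348 times that of Col1a2 in control and 0.351 times after AngII, although the type I fibril contains more alpha-1 than alpha-2 chains, and the bounds of the 2 genes overlapped in both libraries.

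Col3a1, the single chain of type III collagen, had the lowest ratio of this group. It stood at 982 FPKM in the control library (433 to 1530.3) and 641 FPKM in the AngII library (298 to 983), a log2 ratio of -0.61. Its level relative to Col1a2 was 0.563 in control and 0.470 after AngII. Col14a1, a fibril-associated collagen that binds to fibril surfaces, was next at 25.3 FPKM (14.7 to 35.9) and 17.3 FPKM (10.1 to 24.4). Both remained below 0 when centred, at -0.34 and -0.26. Type V collagen, which sits inside type I fibrils and regulates their diameter, was split. Col5a1 was the only fibrillar gene above 0, at 101 FPKM (55.8 to 147) and 123 FPKM (66.5 to 179), while Col5a3 was scarce at 2.64 FPKM (1.45 to 3.84) and 1.91 FPKM (1.02 to 2.80). The collagens outside the fibrils lay below 0 as well. Col8a1, a short-chain collagen of the vessel wall, stood at 987 FPKM (471 to 1503) and 729.8 FPKM (359.9 to 1099.7), and Col6a2, a chain of the beaded filaments of type VI collagen, at 95.9 and 87.2 FPKM. Centred, Col8a1 was at -0.16 and Col6a2 at 0.14.

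Markers of adventitial fibroblasts, which also make collagen, mostly had ratios below 0, as did most expressed symbols. All 4 expressed markers (Pdgfra, Dpep1, Pi16 and Lum) had a ratio below 0, where 30% of all expressed symbols lay above 0. Ly6c was listed at 0 FPKM. The 5 markers with a locus summed to 153 FPKM in control and 120 FPKM in the AngII library (145 FPKM centred). Lum made up 140 and 111 FPKM of these sums. Their part in the collagen levels was not tested. In these bulk libraries fewer cells of a type and less RNA per cell cannot be told apart.

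The basement membrane genes differed among themselves. Lamc1, the gamma-1 chain shared by most laminins, had the second highest ratio of all 31 genes. It stood at 116 FPKM in the control library (62.1 to 169) and 213 FPKM in the AngII library (108 to 318), a log2 ratio of 0.87 that passed 2-fold when centred (1.15), with overlapping bounds. Col4a1, a chain of the type IV collagen network, stood at 119 FPKM (63.8 to 174) and 93.3 FPKM (50.9 to 136). Col18a1, the proteoglycan collagen that contains endostatin, stood at 222 FPKM (116 to 328) and 218 FPKM (114 to 322). Both lay below 0 as deposited, and Col18a1 was at 0.25 when centred.

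Elastic fibre genes were mostly abundant, and 7 of the 8 expressed ones lay below 0 (4 of 8 when centred). The share above 0 was 12.5%, against 30% of all expressed symbols, and 50% when centred, against 53.3%. The main locus of elastin itself could not be compared. Eln is listed on chromosome 12 (23033656 to 23077043), where the control value is printed as 0 with the status HIDATA, a flag of the quantification software for a locus with too many fragments, so that 0 is a failed estimate and no level. After AngII the same locus stood at 9251 FPKM (2670.2 to 15832), and only 2 of 8353 expressed symbols were above it. A second, 1.87 kb locus of the same symbol lies 1.02 kb beyond it (23078066 to 23079936), at 2.14 FPKM in the control library (0.957 to 3.31) and 0.552 FPKM in the AngII library (0.173 to 0.931). Its log2 ratio of -1.01 with bounds apart belongs to that short piece, which had no H3K36me3 in either condition, and gives no direction for elastin.

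Among the proteins that organise elastin, Emilin1, which binds elastin at the fibre surface, had the lowest ratio of all 31 genes at 41.4 FPKM in the control library (24.0 to 58.7) and 23.4 FPKM in the AngII library (13.7 to 33.1), a log2 ratio of -0.80 (-0.53 centred). Ltbp1, which holds latent TGF-beta in the matrix, was the only elastic fibre gene above 0 as deposited, at 42.5 FPKM (24.4 to 60.6) and 57.0 FPKM (32.4 to 81.7). The related Ltbp2 stood at 168 FPKM (88.3 to 248) and 162 FPKM (85.3 to 239). The microfibril gene Mfap4 stood at 586 FPKM (316 to 856) and 476 FPKM (260.0 to 692), and Mfap5 at 18.6 and 14.3 FPKM (-0.36); the coordinates listed for them are those of 7 and 4 loci. Fibrillin-1 (Fbn1), the core of the microfibril, stood at 212 FPKM (105 to 319) and 169 FPKM (86.1 to 252), while Fbn2, prominent in embryonic vessels, was at 0.0834 and 0.0465 FPKM. Fbln5, needed for elastin assembly, was at 278 FPKM (153 to 403) and 248 FPKM (137 to 359), and Fbln1 at 2.16 FPKM (1.04 to 3.28) and 1.81 FPKM (0.854 to 2.76).

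Of the 5 expressed genes that fold, hydroxylate or crosslink collagen, 2 lay above 0 (40%, against 30% of all expressed symbols) and 3 below. Plod2, the lysyl hydroxylase of the collagen telopeptides, stood at 688 FPKM in the control library (337 to 1038) and 468 FPKM in the AngII library (242 to 693), a log2 ratio of -0.56. Plod1, which hydroxylates the helix, was far lower at 48.3 FPKM (28.2 to 68.4) and 35.9 FPKM (21.0 to 50.8), with bounds apart from those of Plod2 in each library. Serpinh1, the collagen chaperone HSP47, stood at 432 FPKM (232 to 631) and 437 FPKM (235 to 640.0). Of the lysyl oxidase family, Loxl1, which acts mainly on elastin, stood at 168 FPKM (94.5 to 242) and 133 FPKM (75.3 to 190.1), and Loxl2, which crosslinks type IV collagen, at 20.8 FPKM (12.1 to 29.5) and 23.3 FPKM (13.6 to 33.1).

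The group of matrix glycoproteins, in which Mgp was also placed, had the highest median ratio of the 7. Of 5 genes 4 lay above 0 as deposited (80%, against 30% of all expressed symbols) and 4 when centred (against 53.3%), with medians of 0.32 and 0.60. Spp1 (osteopontin), an integrin ligand, had the highest ratio of all 31 genes at 3086 FPKM in the control library (1511 to 4661) and 5765 FPKM in the AngII library (2594 to 8936), a log2 ratio of 0.90 with overlapping bounds, which passed 2-fold when centred (1.18). Postn (periostin) stood at 769.5 FPKM (369.8 to 1169) and 994 FPKM (461 to 1526), Fn1 (fibronectin) at 826 FPKM (341 to 1312) and 1029.9 FPKM (403 to 1657), and Mgp, a calcification inhibitor, at 499 FPKM (286 to 713) and 582 FPKM (330.4 to 833). Sparc, a collagen-binding protein, was the exception at 5599.5 FPKM (2139 to 9059.9) and 4598 FPKM (1799 to 7397), a log2 ratio of -0.28 that was -0.00 when centred. Sparc and Spp1 together made up 45.7% of the summed FPKM of the 31 genes in control and 52.9% after AngII, and Sparc was the highest of the 31 in control and Spp1 after AngII, with overlapping bounds in each library.

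The metalloproteinases with a locus were the gelatinases and the membrane-bound Mmp14. Mmp2, gelatinase A, stood at 420.4 FPKM in the control library (219.8 to 621) and 302 FPKM in the AngII library (162 to 442), a log2 ratio of -0.47. Mmp14, which activates Mmp2 at the cell surface, stood at 90.5 FPKM (52.1 to 129) and 102 FPKM (58.3 to 145), at coordinates listed for 17 loci. Mmp2 was 4.64 times the level of Mmp14 in control and 2.97 times after AngII. Mmp9, gelatinase B, was at 0.0137 FPKM in control and listed at 0 after AngII.

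**Figure D2:**
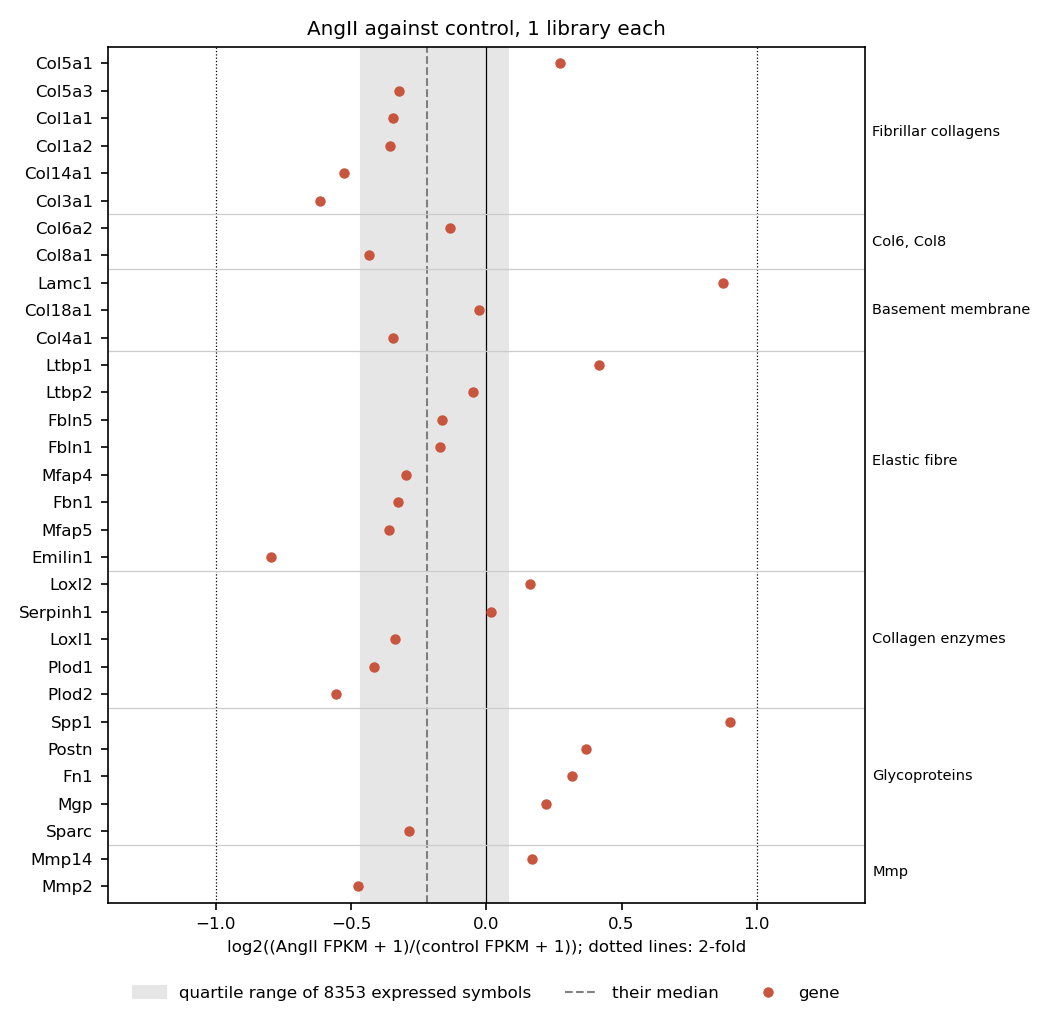
Log2 ratio of AngII to control RNA, on the pseudocount scale, for the 31 expressed matrix genes grouped by role; the shaded band is the range between the quartiles of all 8353 expressed symbols and the dotted lines mark 2-fold. All points lie inside the 2-fold lines, with Spp1 (0.90) and Lamc1 (0.87) nearest the upper line and Emilin1 (-0.80) nearest the lower.

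The start regions of some genes with high or low ratios, or high levels, are shown for reading beside these values. RefSeq sequence of the assembly GRCr8 was matched for 20 of the 34 genes. Emilin1 and Col3a1, which had the lowest ratios, were not among the 20. The RNA and region coordinates are those of rn4, and the 2 assemblies were not converted. Each sequence is the 250 bases before the annotated start, 5′ to 3′ on the gene's strand. Capitals mark every match, on either strand, of the TATA box TATAAA, the CCAAT box, the GC box GGGCGG, the AP-1 core TGANTCA, the cyclic AMP response element TGACGTCA and the CArG box; a pair of matches overlaps in Lamc1. Spp1 (chr14:5619805-5620054, minus strand) and Lamc1 (chr13:68051987-68052236, minus strand) had the highest RNA ratios, Plod2 (chr8:101964068-101964317, plus strand) had a low ratio, Sparc (chr10:40038817-40039066, minus strand) and Col1a2 (chr4:33518307-33518556, plus strand) had the highest mean levels, over both libraries, of a glycoprotein and of a collagen, and Postn (chr2:140677811-140678060, plus strand) was abundant and above 0.
Spp1: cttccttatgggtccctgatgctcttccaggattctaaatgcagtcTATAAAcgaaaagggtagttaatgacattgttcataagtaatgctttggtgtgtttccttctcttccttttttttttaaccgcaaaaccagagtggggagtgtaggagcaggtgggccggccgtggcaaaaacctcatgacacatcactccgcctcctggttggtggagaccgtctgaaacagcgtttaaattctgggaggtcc
Lamc1: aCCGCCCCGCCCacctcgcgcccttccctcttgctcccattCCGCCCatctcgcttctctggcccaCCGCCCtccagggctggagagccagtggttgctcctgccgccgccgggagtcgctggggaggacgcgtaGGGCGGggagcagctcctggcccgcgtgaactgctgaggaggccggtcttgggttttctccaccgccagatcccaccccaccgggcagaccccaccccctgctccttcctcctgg
Plod2: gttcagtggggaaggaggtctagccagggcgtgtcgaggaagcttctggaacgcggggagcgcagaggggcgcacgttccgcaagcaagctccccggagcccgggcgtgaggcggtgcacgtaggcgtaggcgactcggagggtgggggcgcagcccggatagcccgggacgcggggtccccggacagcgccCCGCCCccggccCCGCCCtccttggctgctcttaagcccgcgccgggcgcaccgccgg
Sparc: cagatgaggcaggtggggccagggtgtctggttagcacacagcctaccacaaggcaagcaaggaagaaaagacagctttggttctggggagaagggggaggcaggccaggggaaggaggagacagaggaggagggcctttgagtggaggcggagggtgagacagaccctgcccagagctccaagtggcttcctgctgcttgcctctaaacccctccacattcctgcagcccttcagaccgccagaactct
Col1a2: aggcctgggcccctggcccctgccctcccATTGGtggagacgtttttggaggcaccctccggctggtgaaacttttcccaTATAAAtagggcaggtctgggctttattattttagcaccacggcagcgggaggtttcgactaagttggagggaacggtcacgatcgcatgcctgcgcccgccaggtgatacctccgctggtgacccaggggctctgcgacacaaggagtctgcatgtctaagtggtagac
Postn: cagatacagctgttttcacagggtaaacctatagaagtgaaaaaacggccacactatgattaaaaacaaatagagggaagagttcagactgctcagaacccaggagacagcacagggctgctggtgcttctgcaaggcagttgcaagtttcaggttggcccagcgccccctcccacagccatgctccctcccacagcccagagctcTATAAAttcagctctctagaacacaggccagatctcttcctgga

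These promoters differed in the motif matches they held. Spp1, Col1a2 and Postn were the only 3 of the 20 with TATAAA (15%, against 12.9% of 33469 promoters), 204, 170 and 44 bases before the annotated start. Whether any of these matches acts as a TATA box was not tested. Lamc1 held 5 GGGCGG matches and Plod2 held 2. That motif was in 11 of the 20 (55%) and in 30.5% of all promoters, beside a median GC content of 61.8% in the 20 and 51.2% in all. CCAAT was in 5 of 20 (25%, against 34%). TGANTCA and the CArG box of smooth muscle genes were in 0 of 20, against 6.34% and 1.5% of all, and TGACGTCA was in Ltbp1 only (5%, against 1.59%). Sparc held none of the motifs searched and 2 CpG pairs in its 250 bases, against 19 in Lamc1 and 32 in Plod2.

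Col4a1 and its neighbour Col4a2 start 76 bases apart on opposite strands (chr16:84885521-84885596 in GRCr8), and that stretch is shown because it is the start region of both type IV collagen chains. Its GC content was 78.9%, it held 1 GGGCGG match, in capitals, and none of the other motifs.
Col4a2-Col4a1: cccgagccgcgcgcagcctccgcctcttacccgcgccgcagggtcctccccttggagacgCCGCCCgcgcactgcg

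In rn4 coordinates the Col4a1 locus spans 83045182 to 83157835 on chromosome 16. An H3K4me3 region crossed its lower-numbered boundary in control (83042812 to 83048472) and after AngII (83041546 to 83048425). For a gene on the plus strand, as Col4a1 is in GRCr8, that boundary is the start side. Only Col4a1 had a matched RNA locus.

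H3K4me3 lay at every one of the 34 genes in both conditions, within 1 kb of the locus. The exact 95% interval for 34 of 34 is 89.7% to 100%, for counting error only, and 96.3% of expressed symbols had the mark in each condition. It lay in 1 condition only at 0 of the 34 (against 0.646%). The 2 genes below the expression minimum, Fbn2 and Mmp9, also carried it, with 1 region each of 1.28 to 2.30 kb; of 3868 symbols under 0.1 FPKM in both libraries with coordinates of their own, 30.2% had the mark in control and 29.7% after AngII. At 25 of the 30 genes with coordinates of their own, control H3K4me3 lay near 1 end of the locus only, and after AngII this was so at 24. It lay near both ends of Emilin1, Serpinh1, Sparc, Spp1 and Mgp in both conditions and of Loxl2 after AngII; 4 of these loci are under 10 kb long, and Sparc and Loxl2 span 21.8 and 86.8 kb.

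Many of the regions were broad. A region of 8 kb or more lay at 17 of the 31 expressed genes in control (54.8%, against 20.4% of expressed symbols) and at 20 after AngII (64.5%, against 21.9%). Abundant genes have broader regions in general: of 567 symbols above 100 FPKM in control 37.4% had one, and of the 21 matrix genes above that level 14 did (66.7%). Over the 30 genes with coordinates of their own the widest region had a median of 7.42 kb in control and 9.20 kb after AngII, against 6.12 and 6.72 kb for symbols above 100 FPKM. These shares were not tested. The 30 loci are also longer, with a median of 44.3 kb against 22.4 kb for expressed symbols with coordinates of their own.

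Sparc had the widest control region of the 30 at 25.9 kb, which spanned the whole gene (chromosome 10, 40806478 to 40832334); after AngII it was listed as pieces of 3.20 and 21.6 kb. The Col1a1 region spanned 17.7 kb in control and 21.1 kb after AngII, beside a locus of 16.9 kb. Summed over all regions at a gene, H3K4me3 was wider after AngII at 21 of the 30 genes (70%, against 56.8% of expressed symbols with the mark in both). The region lists were made with steps of 153 bp in control and 160 bp after AngII, so small differences in width carry no weight. At Lamc1 the summed width was 17.1 kb in 7 regions in control and 33.9 kb in 5 regions after AngII, where regions that were separate in control were listed as joined, and its RNA was the second highest in ratio. At Serpinh1 it was 11.5 and 22.1 kb with an RNA log2 ratio of 0.02, and at Emilin1 11.9 and 19.5 kb with the lowest RNA ratio. Eln was among those narrower after AngII, at 22.5 and 16.6 kb.

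H3K36me3 covered most of these genes from end to end in both conditions. It touched 32 of 34 genes in control (94.1%, exact 95% interval 80.3% to 99.3%, against 95.7% of expressed symbols) and 33 after AngII (97.1%, 84.7% to 99.9%, against 97.5%). Over 99% of the locus was covered at 22 of the 31 expressed genes in control (71.0%, against 53.3%) and at 23 after AngII (74.2%, against 55.2%). Cover differed by under 1 percentage point between conditions at 24 of the 34 genes. The main Eln locus was covered throughout in both, under a region of 101 kb in control and 113 kb after AngII. Lamc1 and Spp1, with the highest RNA ratios, were at 100% in both conditions, and so was Emilin1 with the lowest, so cover had no room to be higher at Lamc1 or Spp1.

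Cover was higher by over 20 percentage points after AngII at 3 genes (8.82% of 34, against 7.77% of expressed symbols) and lower by as much at 0 (against 2.04%), so the share is near the background. Fbln1, a fibulin of elastic fibres and basement membranes, had no H3K36me3 in control and 40.2% cover after AngII, in 3 regions of which the largest spanned 24.7 kb (chromosome 7, 123223166 to 123247825). It was the only one of the 34 with the mark in 1 condition only (2.94%, against 2.79%), and its RNA was low in both. Col5a3 was at 41.9% in control, with a region of 20.6 kb, and 99.6% after AngII, with a region of 54.8 kb (chromosome 8, 19779252 to 19834051). Mgp, a gene of 3.32 kb, was at 65.5% and 100%, with regions of 3.53 and 7.67 kb, which are few steps of 589 and 548 bp. None of the 3 had a higher RNA level beyond its bounds, with log2 ratios of -0.17, -0.32 and 0.22. All 3 started below 70% cover, where 26.0% of expressed symbols were higher by over 20 points. Mmp9 had no H3K36me3 in either condition and Fbn2 had 0.896% and 1.25% cover, and these 2 genes had the lowest RNA levels of the 34.

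**Figure D3:**
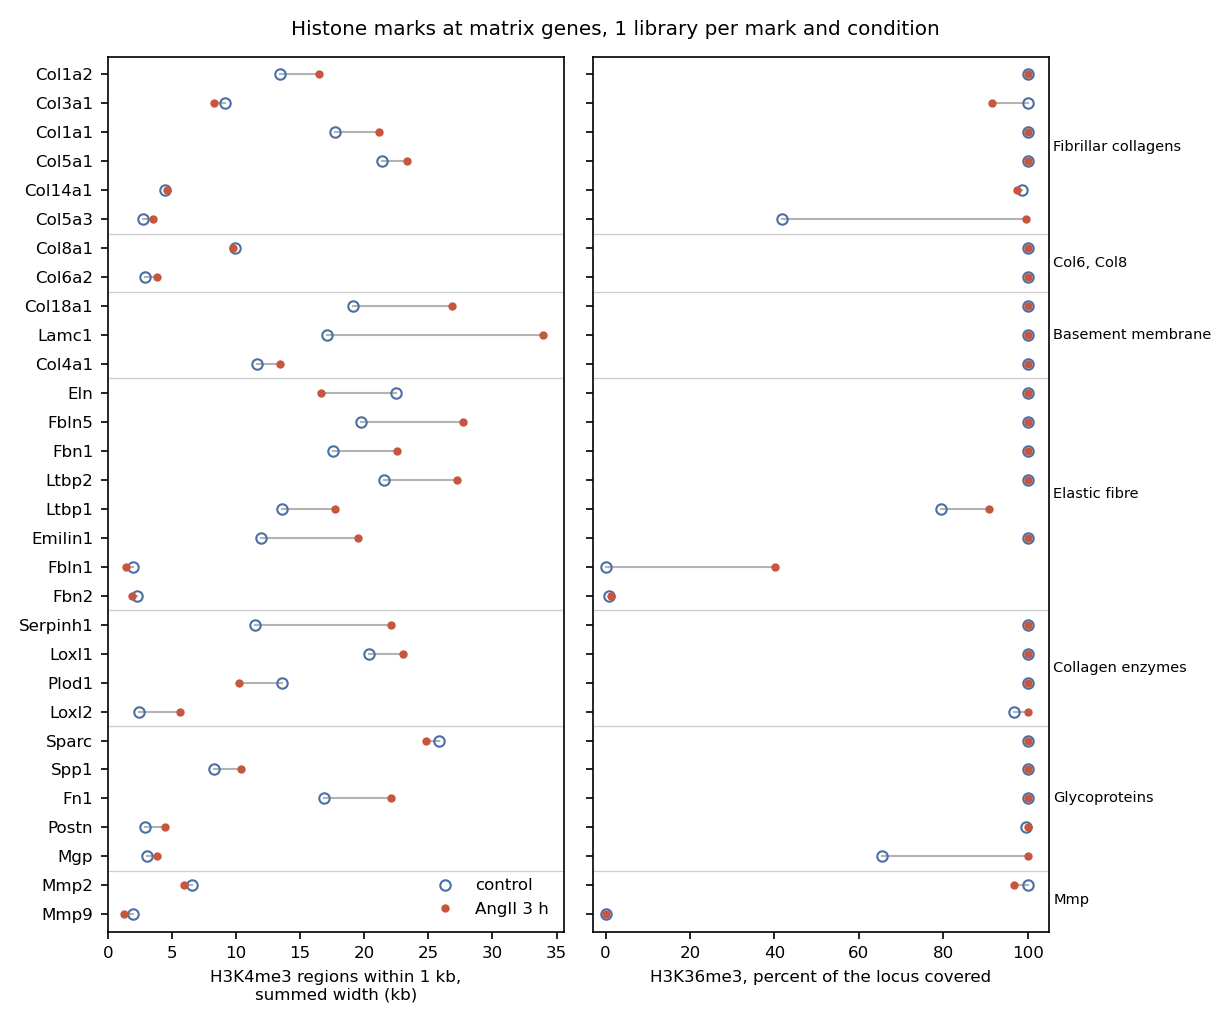
Summed width of H3K4me3 regions within 1 kb (left, kb) and percent of the locus under H3K36me3 (right) for the 30 matrix genes with coordinates of their own, in control (open circles) and after AngII (filled), 1 library each. Lamc1 and Serpinh1 show the largest differences in H3K4me3 width, and Col5a3, Fbln1 and Mgp are the genes whose H3K36me3 cover is higher by over 20 points.

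Other matrix genes, taken from 6 lists by role chosen with earlier results of these data known, held several larger differences. Of 78 listed genes 52 had a locus and 36 were expressed. After AngII 4 were at least 2-fold higher (against 3.89% of expressed symbols), 3 of them with bounds apart (against 3.02%). A further 1 was at least 2-fold lower (against 2.95%), with overlapping bounds. The median log2 ratio of the 36 was -0.22 (0.06 centred).

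Among 15 expressed collagen processing genes 2 were at least 2-fold higher (against 3.89% of expressed symbols) and the median was -0.26. Loxl4, a lysyl oxidase, stood at 2.15 FPKM in the control library (1.10 to 3.21) and 19.3 FPKM in the AngII library (11.3 to 27.4), a log2 ratio of 2.69 with bounds apart, and its H3K36me3 cover was 72.6% and 100%. Tll1, a procollagen C-proteinase, stood at 16.9 FPKM (9.90 to 24.0) and 36.8 FPKM (21.3 to 52.2), with overlapping bounds. The other 13 lay between -0.55 and 0.16, among them the prolyl hydroxylase subunits P4ha2 (-0.26), P4ha3 (-0.10) and P4hb (-0.18), the propeptidase Bmp1 (-0.29), and the crosslinking transglutaminase Tgm2 (-0.55). Of the same family Loxl1 was at -0.34 and Loxl2 at 0.16; the differences among the 3 were not tested.

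Of 3 expressed basement membrane genes none was past 2-fold: Lama5, a laminin alpha chain, was at 0.66 with coordinates shared by 11 loci, Agrn (agrin) at -0.49, and Nid2, a nidogen that links laminin to type IV collagen, at 0.16. Of 4 expressed elastic fibre genes none was past 2-fold; Ltbp3 (-0.64), Ltbp4 (-0.37) and Matn4 (-0.22) differed most.

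All 5 expressed metalloproteinases outside the main list lay below 0, and 4 of them when centred. Over all expressed symbols 30% lay above 0, and 53.3% when centred. Only Mmp28 was at least 2-fold lower, against 2.95% of expressed symbols. It stood at 6.46 FPKM in the control library (3.35 to 9.56) and 2.42 FPKM in the AngII library (1.10 to 3.74). Its coordinates are shared by 9 loci, and it was not past 2-fold when centred (-0.92). Mmp23 (-0.98) and Mmp11 (-0.85) were next, with overlapping bounds.

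Of the 9 expressed receptors for matrix, 2 were at least 2-fold higher (against 3.89% of expressed symbols), both with bounds apart (against 3.02%). On the lower side 0 passed 2-fold (against 2.95%). The median was 0.42, the value of Ddr1. Cd44, the receptor of hyaluronan that also binds osteopontin, stood at 11.8 FPKM in the control library (6.85 to 16.7) and 71.4 FPKM in the AngII library (40.6 to 102), a log2 ratio of 2.50. Itga5, which pairs with Itgb1 as the fibronectin receptor, stood at 33.0 FPKM (19.2 to 46.8) and 139 FPKM (76.2 to 202), a log2 ratio of 2.04. Itgb1 itself stood at 528 FPKM (264 to 791) and 768 FPKM (366 to 1169.6). Itga7, a laminin receptor subunit of muscle, stood at 12.2 and 22.7 FPKM (0.85) and passed 2-fold when centred (1.12), with overlapping bounds. The collagen receptors were at -0.41 (Itga1), 0.42 (Ddr1, at coordinates shared by 82 loci) and 0.02 (Ddr2).

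**Figure D4:**
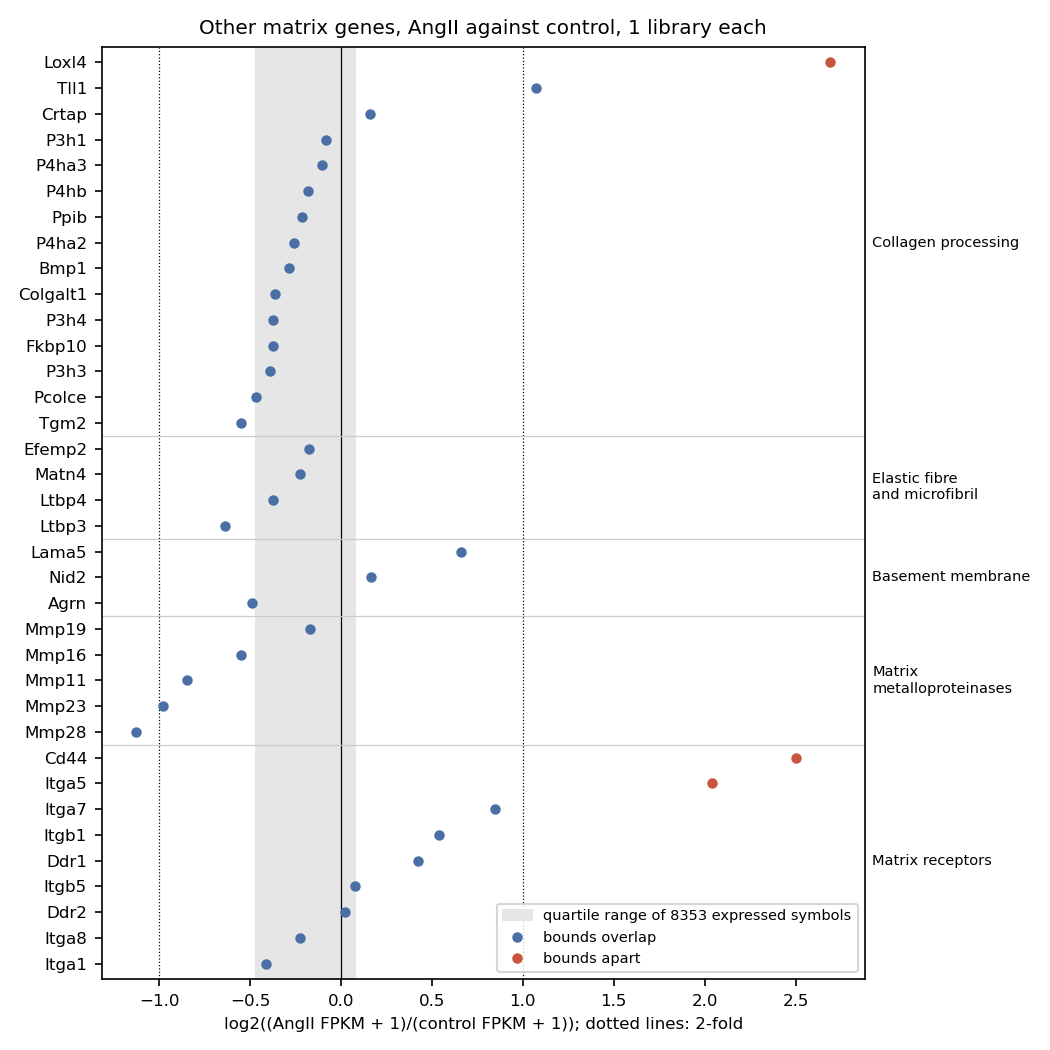
Log2 ratio of AngII to control RNA for 36 expressed matrix genes outside the main list, grouped by list; red points have deposited bounds that do not overlap, the shaded band is the range between the quartiles of all 8353 expressed symbols and the dotted lines mark 2-fold. Loxl4 (2.69), Cd44 (2.50) and Itga5 (2.04) lie beyond 2-fold with bounds apart, and Mmp28 (-1.13) beyond 2-fold on the lower side.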

How the data were processed

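RNA abundance is in FPKM with lower and upper bounds, as deposited by the authors; the submitters' processing notes list TopHat, Cufflinks, Cuffdiff and rn4 with no version. Ribosomal RNA was removed before sequencing, per the labels' protocols. The 2 deposited RNA tables were identical and hold both conditions. The ChIP-seq files are region lists with 2 scores per region deposited by the authors; the submitters' processing notes list Bowtie. For the region caller: not given in the sources used here. Scores served only to filter regions within a list, by the first of them. The 2 input libraries were not analysed here.

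Accessions were matched to symbols through a RefSeq table of GRCr8, used for names and for promoter sequence; coordinates are those of the files. The members, roles and lists were chosen with earlier results of these data known. A gene of the lists of other matrix genes and a cell type marker list are not reported here, and the counts leave that gene out. A symbol with several loci was represented by its most abundant one, even where the status of that locus was not OK, which leaves Eln without a ratio. Ratios use a pseudocount of 1, expression a minimum of 1 FPKM, and calls a 2-fold rule of size; with 1 library per condition there is no test. H3K4me3 was counted within 1 kb of a locus and H3K36me3 on it. Shares have exact Clopper-Pearson 95% intervals, for counting error only. Named genes are every expressed gene past 2-fold or with bounds apart, the 8 highest and 8 lowest ratios, the 12 most abundant, every gene whose mark differs between conditions, and up to 3 per list of other matrix genes with the largest difference; other names were chosen after their values were seen. Calculations used Python 3.11.15, pandas 2.3.3, numpy 2.4.6, scipy 1.17.1 and matplotlib 3.10.9, and the counting was tested on simulated data.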

Additional observations from a re-analysis of the deposited data

Results flagged for a closer look

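Eln, the elastin gene, stood at 9251 FPKM after AngII at a locus that entered no comparison, because its control estimate failed. Its bounds after AngII were 2670.2 to 15832 FPKM. Of 8353 expressed symbols 2 stood higher in that library. The locus is 1 of 15 in the table without a usable estimate in at least 1 library, and it carried both histone marks in both conditions.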

How the results depend on the processing

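The count of matrix genes at least 2-fold higher was 0 as reported and 2 when centred (Spp1 and Lamc1) or with a 1.5-fold rule (the same 2 genes). The count at least 2-fold lower was 0 as reported, 2 with a 1.5-fold rule (Emilin1 and Col3a1) and 1 with the highest usable locus per symbol, a setting chosen after seeing the data that takes the short second locus of Eln. With a threshold of 10 points, 5 genes in place of 3 had higher H3K36me3 cover. Among the other matrix genes 2 in place of 1 were 2-fold lower with a pseudocount of 0.1, and 0 with a pseudocount of 5 or centred. The count of them at least 2-fold higher was 4 as reported, 5 when centred (with Itga7) and 3 with a pseudocount of 5. The median log2 ratio was -0.28 as reported, -0.16 with a pseudocount of 5, -0.17 without an FPKM minimum and -0.00 centred. Of the recomputed values that answer a comparison 50 were classed as kept (counts to a factor of 1.5) and 8, all of them counts, moved. The 50 include the median log2 ratio, although it was -0.00 when centred. The 186 recomputed ratios of single genes all kept to 1 SD of the deposited model. That SD is wider than the shift from centring at each expressed gene, so centring could not move a ratio past it. Col6a2, Col18a1, Fbln1, Fbln5 and Ltbp2 still changed sign when centred. The cause of these differences was not tested. No paired analysis was possible because there is 1 library per condition and assay, so leaving one out was not possible either. Model bounds hold no replicate variation, and levels at the shared loci of Mfap4, Mfap5, Plod2 and Mmp14 depend on how fragments were divided.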

Other observations

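Short second loci lay beside 10 of these genes, and carried the same symbol. There were 11 of them, 590 to 1870 bp long and 198 to 1842 bp from the main locus, at no more than 3.34 FPKM in control and 5.67 FPKM after AngII. Of the 10 beside a main locus with a ratio, 7 had the same sign as it. The second locus of Spp1 (chromosome 14, 6420926 to 6421582) stood at 1.29 FPKM in the control library (0.321 to 2.25) and 5.67 FPKM in the AngII library (2.42 to 8.92), a log2 ratio of 1.55 with bounds apart, while the bounds of the main locus overlapped. Those of Postn (0.91), Mgp (0.69) and Lamc1 (0.66 and 0.47) were also above 0, as were those of Col18a1 (0.59) and Col1a1 (0.42), whose main loci were at -0.03 and -0.35. Those of Col3a1 (-0.62), Sparc (-0.52) and Serpinh1 (-0.29) were below 0. At these levels few fragments lie behind each value.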
